A study of Mus musculus with 14 samples.

Results

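Fatty acid uptake and triglyceride synthesis were followed through 10 genes of epididymal white adipose tissue (eWAT), namely Lpl, Gpihbp1, Cd36, Fabp4, Acsl1, Gpam, Agpat2, Lpin1, Dgat1 and Dgat2. They were taken from the count table by their symbols, 10 of its 23282 genes, and each symbol stood there once. Fat cells take up fatty acids that lipoprotein lipase releases from circulating triglyceride, bind them in the cytosol and activate them to acyl-CoA. The acyl chains are then joined to glycerol phosphate in a series of acylations, with removal of the phosphate before the last one, and the triglyceride is stored in the lipid droplet. In white fat this route is on in mature adipocytes, while Gpihbp1 is made by capillary endothelium and Cd36, Fabp4 and Lpl are also used by other cells of the tissue.

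The libraries came from male wild type C57BL/6J mice that entered the study at 4 weeks of age and ate a standard diet (control) or a Western diet (WD), rich in saturated fat with added cholesterol, for 20 weeks. QuantSeq 3′-mRNA sequencing, which reads the 3′ end of each polyadenylated transcript, gave 14 libraries. Batch 1 of the labels held 4 control libraries (B1_con1 to B1_con4) and 5 WD libraries (B1_WD1 to B1_WD5), and batch 2 held 5 control libraries (B2_con1 to B2_con5). No WD library belonged to batch 2, so diet and batch cannot be told apart in a comparison of WD with the batch 2 controls. The labels say no more of the batches than their number. They number the libraries without naming the animals, and the p-values measure the spread between these libraries.

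Library totals ranged from 10278970 to 13712254 counts. Of these, the 10 genes took between 2.80% and 4.16% in 12 libraries, 1.70% in B1_WD2 and 0.348% in B1_con1. B1_con1 also held 13.2% of its counts in 12 epididymis genes, against at most 0.00536% in each of the other 13 libraries, and B1_con4 had a count at 7999 genes, the fewest of all. The defining adipocyte markers were present in all 14 libraries, with 0 of the 10 markers at a count of 0 in any of them. Their summed level was 3767 CPM (counts scaled to a common library total) in B1_con1 and 13640 to 24990 CPM in the other batch 1 controls. It was 11160 to 17750 CPM with WD, and 32530 to 44410 CPM in batch 2.

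Against the batch 2 controls, 3 of the 10 genes fell in the WD group in edgeR, and all 3 act in activation and synthesis, as do Gpam, Agpat2 and Dgat1. DESeq2 and limma-voom also called Agpat2 and Lpl, the latter a gene of uptake. The difference between these steps and uptake was not tested. Lpin1 fell by 1.23 on the log2 scale (SE 0.20), Acsl1 fell by 0.86 (SE 0.19) and Dgat2 fell by 0.84 (SE 0.20), with FDRs of 0.00120, 0.00945 and 0.0191 in edgeR's quasi-likelihood test. Of all 12070 genes tested in that comparison, 2.48% were called lower at an FDR under 0.05. The median log2 fold change was -0.73 over the 10 genes and -0.003 over all genes tested, and 8 of the 10 values were negative, as were 50.2% of those of all genes. Within batch 1, 0 of the 10 genes passed the test, and the share of all 12157 genes that did was 0%. There, 0 of the 10 had an unadjusted p under 0.05, against 5.17% of all genes in edgeR, and 114 genes were called by DESeq2. Without B1_con4 edgeR called 48 genes, 0 of them among the 10. Against the batch 2 controls, all 5 WD libraries lay below all 5 controls for 4 of the 10 genes, and for 3.8% of all genes tested. All 10 genes passed the filter on low counts in every comparison. Because this is bulk RNA, fewer adipocytes and less RNA of a gene per adipocyte cannot be told apart.

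**Figure D1:**
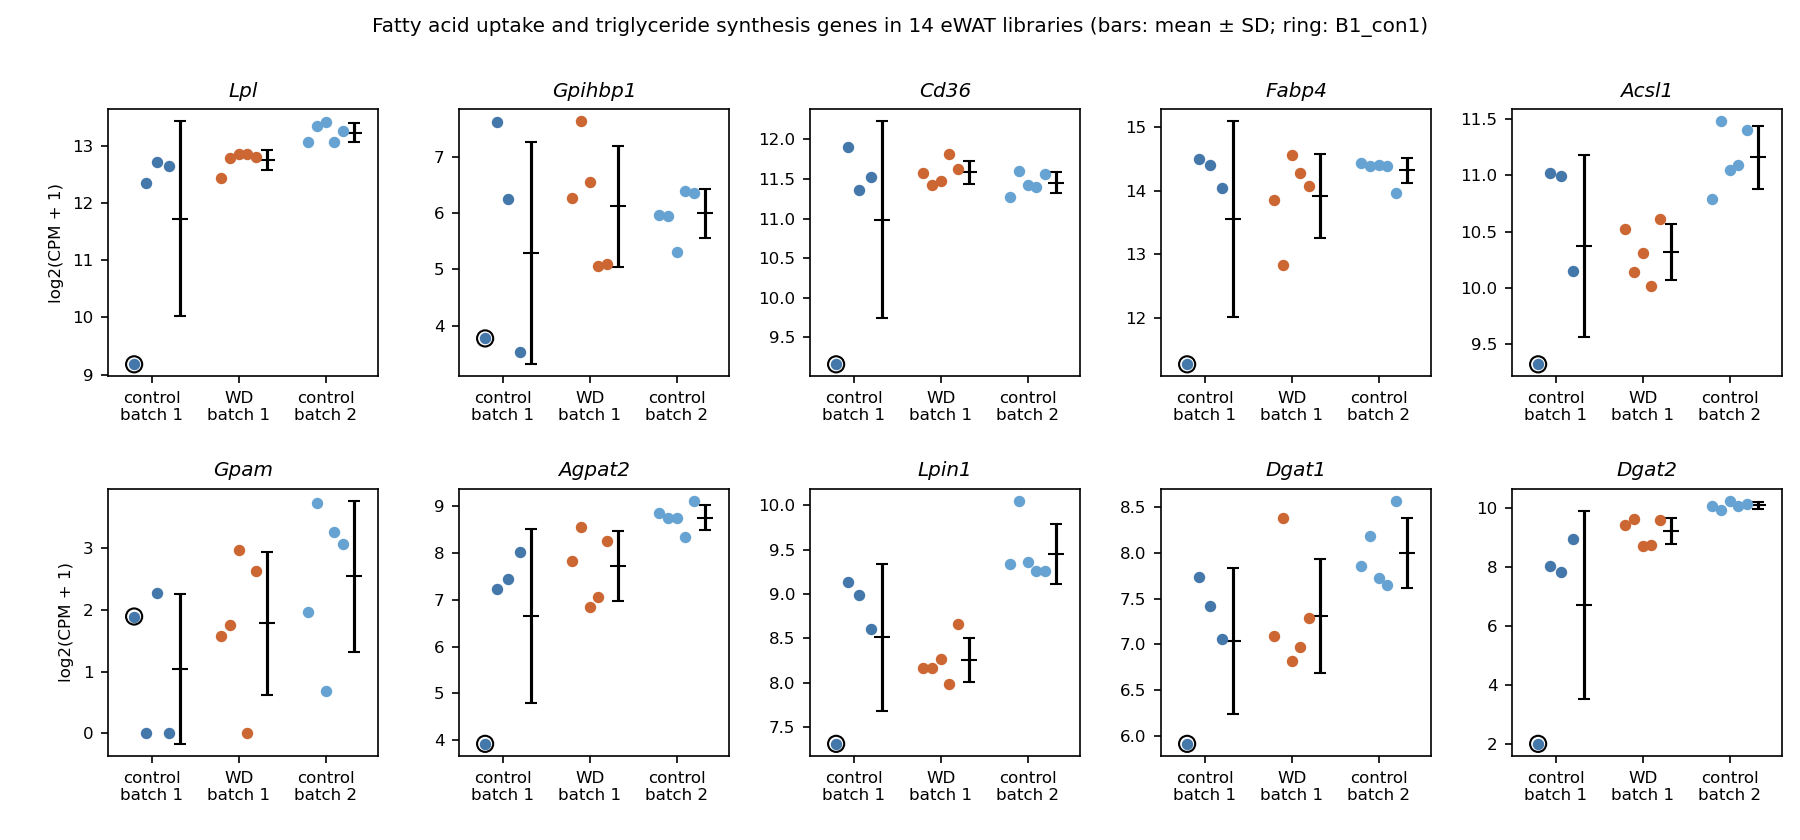
Level of each gene as log2(CPM + 1) in the 14 libraries, 1 panel a gene with its own axis range, grouped by diet and batch. Each point is a library, the bar gives the mean ± SD of its group, and the ring marks B1_con1, which lies lowest of the 14 for 8 of the genes.

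**Figure D2:**
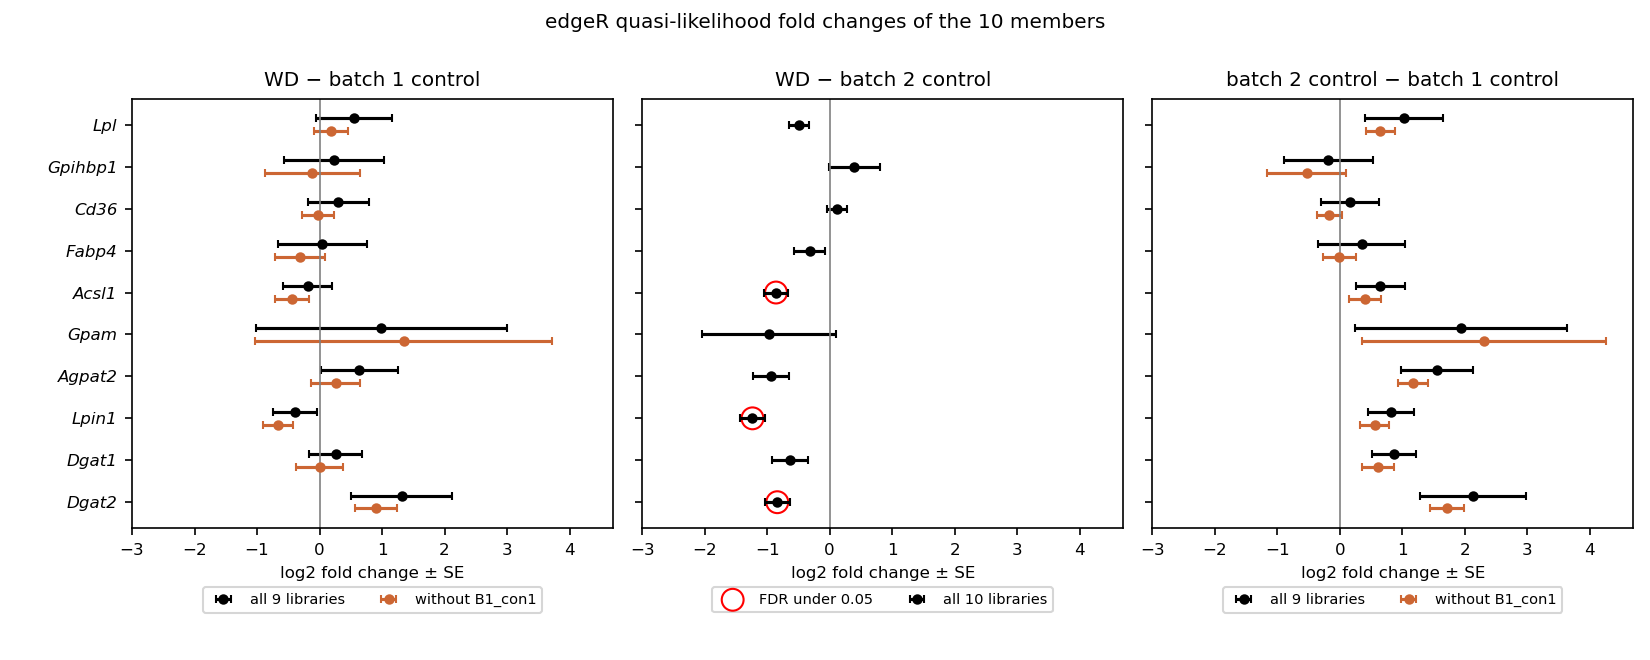
Log2 fold change (± SE) of each gene in WD against batch 1 controls, in WD against batch 2 controls and in batch 2 against batch 1 controls, from edgeR's quasi-likelihood test, with orange points for the fits without B1_con1. Red rings mark the 3 genes with an FDR under 0.05, Acsl1, Lpin1 and Dgat2, all against the batch 2 controls.

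Lpl (chr8:68880555-68906932, plus strand, mm10) encodes lipoprotein lipase, which frees fatty acids from chylomicrons and very low density lipoproteins. Its level was 580.2, 5171, 6726 and 6422 CPM in B1_con1 to B1_con4, 5521, 7092, 7456, 7406 and 7123 CPM in B1_WD1 to B1_WD5, and 8528, 10350, 10980, 8553 and 9722 CPM in B2_con1 to B2_con5. Every WD library lay below every batch 2 control, while the WD range overlapped that of the batch 1 controls. The log2 fold change in WD was -0.49 (SE 0.17, edgeR FDR 0.104) against the batch 2 controls, so that it missed the threshold, whereas DESeq2 (FDR 0.0189) and limma-voom (FDR 0.0304) called it. Within batch 1 it was 0.55 (SE 0.61, FDR 1.00), and 0.18 (SE 0.27) without B1_con1.

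Gpihbp1 (chr15:75596658-75598213, plus strand) encodes the endothelial protein that carries the lipase to the capillary lumen. It averaged 73.6 ± 86.7 CPM (SD, n = 4) in the batch 1 controls, 86.6 ± 67.7 (n = 5) in WD and 65.2 ± 18.1 (n = 5) in the batch 2 controls. The libraries of batch 1 spread widely, from 10.5 CPM in B1_con4 to 198.1 CPM in B1_WD2, and the groups overlapped. The log2 fold changes were 0.23 (SE 0.80, FDR 1.00) within batch 1 and 0.39 (SE 0.41, FDR 0.738) against the batch 2 controls, and both turned negative without B1_WD2 (-0.33 and -0.16), the former also without B1_con1 (-0.12) or B1_con4 (-0.15). The 8 endothelial markers summed to 101.8 to 350.5 CPM in the batch 1 controls, 88.2 to 241.1 in WD and 86.7 to 213.1 in the batch 2 controls. The level of Gpihbp1 was 10.3% to 55.8% of that sum in the batch 1 controls, 23.5% to 82.2% in WD and 36.1% to 83.3% in the batch 2 controls, again with overlapping groups. The model counted for Gpihbp1 ended 1268 bases short of the 3′ end that GENCODE gives, and the part of this in its low counts was not tested.

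Cd36 (chr5:17781690-17888959, minus strand), the membrane protein that takes up long-chain fatty acids, had the smallest spread of the 10 genes over the 13 libraries other than B1_con1, with an SD of 0.18 on the log2(CPM + 1) scale. It stood at 572.3, 3837, 2635 and 2941 CPM in the batch 1 controls, 3062, 2764, 2859, 3590 and 3138 CPM in WD, and 2466, 3099, 2767, 2702 and 3020 CPM in the batch 2 controls. The 3 groups overlapped. The log2 fold change was 0.12 (SE 0.16, FDR 0.812) against the batch 2 controls and 0.30 (SE 0.49, FDR 1.00) within batch 1, where it became -0.03 (SE 0.25) without B1_con1.

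Fabp4 (chr3:10204343-10208576, minus strand), the cytosolic fatty acid binding protein of adipocytes, alone took 0.61% to 2.59% of the counts outside B1_con1 and 0.191% in it. Its level was 2475, 23320, 21760 and 16850 CPM in the batch 1 controls, 14750, 7276, 24110, 19900 and 17280 CPM in WD, and 22170, 21660, 21710, 21690 and 15910 CPM in the batch 2 controls. B1_WD2 was the lowest library after B1_con1, and the groups overlapped. Log2 fold changes were 0.05 (SE 0.72, FDR 1.00) within batch 1, -0.31 (SE 0.40) there without B1_con1, and -0.32 (SE 0.25, FDR 0.613) against the batch 2 controls.

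Acsl1 (chr8:46471037-46536051, plus strand) encodes the main long-chain acyl-CoA synthetase of adipocytes, which activates fatty acids before they are esterified. In the batch 1 controls it stood at 639.3, 2077, 2029 and 1139 CPM, in WD at 1463, 1130, 1269, 1037 and 1567 CPM, and in the batch 2 controls at 1768, 2846, 2124, 2173 and 2700 CPM. All WD libraries were below all batch 2 controls. The mean log2(CPM + 1) was 10.32 ± 0.25 (SD, n = 5) in WD and 11.16 ± 0.28 (n = 5) in the batch 2 controls, with an exact two-sided permutation p of 0.00794, the smallest this design allows. Within batch 1 the log2 fold change was -0.19 (SE 0.39, FDR 1.00), and -0.44 (SE 0.27, FDR 0.972) without B1_con1.

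Lpin1 (chr12:16535669-16589770, minus strand) encodes lipin 1, the phosphatidate phosphatase that makes diacylglycerol. Its level was 157.6, 558.5, 509.1 and 389.7 CPM in the batch 1 controls, 287.0, 287.6, 307.0, 254.1 and 404.3 CPM in WD, and 648.8, 1058, 658.2, 611.5 and 612.0 CPM in the batch 2 controls. Every WD library lay below every batch 2 control, and 4 of the 5 also lay below B1_con2, B1_con3 and B1_con4. The exact permutation p against the batch 2 controls was 0.00794. In batch 1 the log2 fold change was -0.39 (SE 0.35, FDR 1.00), and without B1_con1 it was -0.66 (SE 0.24) with an unadjusted p of 0.0181 and an edgeR FDR of 0.667. Against all 9 controls it was -0.92 (SE 0.32, FDR 0.314), and 0.53% of all genes were called in that comparison. Leaving out B1_con1 there gave -1.03 (SE 0.22) with an FDR of 0.0186, the only call among the 10 genes.

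Across the 14 libraries Acsl1 and Lpin1 were each other's nearest gene among the 10, with a root mean square difference of 0.26 between their centred log2(CPM + 1) values. Since this pair fell together against the batch 2 controls, the 250 bases before an annotated start of each are shown from RefSeq (GRCm38.p6), 5′ to 3′ on the gene's strand. Capitals mark the letters of motifs searched on both strands, the GC box GGGCGG in Acsl1 and the PPAR half-site AGGTCA in Lpin1. The Acsl1 stretch is chr8:46470787-46471036 (plus strand), and the Lpin1 stretch is chr12:16610967-16611216 (minus strand).
Acsl1: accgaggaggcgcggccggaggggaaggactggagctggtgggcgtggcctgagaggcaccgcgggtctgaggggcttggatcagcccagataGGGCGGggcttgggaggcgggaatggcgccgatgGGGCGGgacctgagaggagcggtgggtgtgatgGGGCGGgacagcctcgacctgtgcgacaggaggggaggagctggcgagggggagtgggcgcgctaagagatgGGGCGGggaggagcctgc
Lpin1: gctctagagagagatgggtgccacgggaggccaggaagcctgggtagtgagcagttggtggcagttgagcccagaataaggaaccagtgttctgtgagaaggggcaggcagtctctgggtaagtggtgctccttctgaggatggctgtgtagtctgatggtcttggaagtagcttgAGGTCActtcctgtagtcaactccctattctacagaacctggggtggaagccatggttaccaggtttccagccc
The Acsl1 stretch held GGGCGG at 4 places and the Lpin1 stretch held AGGTCA at 1 place, 74 bases before the start. Over the 32851 promoters of the table, 32.7% held GGGCGG and 14% held AGGTCA, against 4 and 3 of the 7 entries for Acsl1, Lpin1, Cd36, Agpat2 and Gpam. For 5 of the 7 entries the start was found in an annotated transcript of the gene. It was not found for the Cd36 entry or for the Gpam entry at chr19:55099478-55099727, and both of these held GGGCGG and AGGTCA. Among the 5 entries, AGGTCA stood only in that of Lpin1, and GGGCGG only in that of Agpat2 and in the Acsl1 stretch shown. A direct repeat of AGGTCA with 1 base between, the E-box CACGTG and TATAAA stood in 0 of the 7 entries and in 0.0335%, 6.02% and 12.4% of all promoters, and CCAAT stood in 3 of the 7 and in 33.8%. The counted model of Lpin1 begins at a start downstream of the one shown, and 3′ reads do not tell which start was used.

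Gpam (chr19:55069734-55099447, minus strand) encodes the mitochondrial glycerol-3-phosphate acyltransferase, which adds the first acyl chain. It had 25, 0, 46 and 0 counts in the batch 1 controls, 28, 22, 92, 0 and 62 counts in WD, and 41, 128, 8, 112 and 74 counts in the batch 2 controls. At a count of 0 the depth allows up to 3 counts, or 0.256, 0.243 and 0.235 CPM in B1_con2, B1_con4 and B1_WD4. The log2 fold changes were 0.99 (SE 2.01) within batch 1 and -0.97 (SE 1.07, FDR 0.758) against the batch 2 controls, and no difference was detectable at these counts. The model counted for Gpam ended 2466 bases short of the GENCODE 3′ end, as far short or further than 9.24% of 22101 matched genes. The part of this in its low counts was not tested.

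Agpat2 (chr2:26593057-26604417, minus strand) encodes the acyltransferase that makes phosphatidate, and its loss causes generalized lipodystrophy in people and mice. Its level was 14.2, 150.1, 173.0 and 260.3 CPM in the batch 1 controls, 228.3, 378.8, 114.1, 133.5 and 307.1 CPM in WD, and 461.3, 431.0, 429.5, 324.8 and 553.6 CPM in the batch 2 controls. Only B1_WD2 reached into the range of the batch 2 controls. The log2 fold change against them was -0.94 (SE 0.29, edgeR FDR 0.0695), past the threshold in DESeq2 (FDR 0.0210), in limma-voom (FDR 0.0209) and in edgeR without B1_WD2 (FDR 0.00990). Within batch 1 it was 0.64 (SE 0.61, FDR 1.00), and 0.26 (SE 0.40) without B1_con1. On the other strand, Gm20532 of the GENCODE annotation spans all 11361 bases of Agpat2, and the end of Egfl7 overlaps its last 64 bases. The strand setting of the counting is not given in the sources used here. Egfl7 had 32.7 CPM in WD and 21.95 CPM in the batch 2 controls, a log2 fold change of 0.56 (SE 0.45, FDR 0.617).

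Dgat1 (chr15:76502015-76511818, minus strand) and Dgat2 (chr7:99153663-99182713, minus strand) encode the unrelated enzymes of the last acylation, from diacylglycerol to triglyceride. Dgat1 averaged 143.6 ± 65.4 CPM (SD, n = 4) in the batch 1 controls, 172.1 ± 91.5 (n = 5) in WD and 262.8 ± 74.5 (n = 5) in the batch 2 controls. B1_WD2, at 333.2 CPM, was the WD library above the others, which lay between 112.4 and 156.0 CPM and below every batch 2 control. The log2 fold change of Dgat1 against the batch 2 controls was -0.63 (SE 0.29, FDR 0.265), and -1.01 with an edgeR FDR of 0.00554 without B1_WD2. Within batch 1 it was 0.26 (SE 0.42, FDR 1.00).

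Dgat2 stood at 3.02, 263.8, 228.0 and 496.4 CPM in the batch 1 controls, 679.9, 779.8, 419.7, 432.6 and 768.5 CPM in WD, and 1079, 964.4, 1204, 1084 and 1123 CPM in the batch 2 controls. The WD group thus lay between the control groups, below every batch 2 control and overlapping the batch 1 controls only at B1_con4. Within batch 1 the log2 fold change was 1.31 (SE 0.81, FDR 1.00), and 0.90 (SE 0.34, unadjusted p 0.0209, edgeR FDR 0.694) without B1_con1, which held 28 counts. The difference in mean log2(CPM + 1) within batch 1 was 2.50 with an exact permutation p of 0.0238, and 0.93 with p = 0.0714 without B1_con1. Dgat2 missed the threshold against the batch 2 controls without B1_WD3 (edgeR FDR 0.0538) or without B2_con3 (FDR 0.0567).

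The 2 control groups themselves stood apart for part of the route. Batch 2 controls were above all 4 batch 1 controls for Lpl, Agpat2, Lpin1 and Dgat2 in CPM, 4 of the 10 genes, as for 4.13% of all genes tested, although relative to adipocyte markers the mean of Lpin1 was lower in batch 2, and that of Lpl too without B1_con1. The log2 fold change between the control batches was 2.13 (SE 0.85, FDR 0.595) for Dgat2 and 1.55 (SE 0.58, FDR 0.553) for Agpat2, and 0 of the 10 genes passed the test, with 0% of all genes called in edgeR, 7.39% of all genes at an unadjusted p under 0.05 and 111 genes called by DESeq2. Without B1_con1 and B1_con4, a choice made after the values were seen, Dgat2 (2.15, FDR 0.000609) and Agpat2 (1.45, FDR 0.0385) were called among 28 genes. The WD comparisons with either control group use the same 5 WD libraries, and the 2 sets of fold changes are not independent.

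The adipocyte markers moved with these differences. Against the batch 2 controls, 7 of the 10 adipocyte markers fell and Lep, which encodes leptin, rose by 1.29 on the log2 scale (SE 0.27, FDR 0.00611). Adipoq, which encodes adiponectin, fell by 1.40 (SE 0.19) and Plin1, of the droplet coat, fell by 1.19 (SE 0.18). Within batch 1, WD differed from control by -0.15 (SE 0.56) for Adipoq, 0.30 (SE 0.49) for Plin1 and 1.38 (SE 0.47) for Lep. There, 0 of the 10 markers passed the test. From batch 1 to batch 2 controls the log2 fold change was 1.23 (SE 0.62) for Adipoq, 1.47 (SE 0.50) for Plin1 and 0.07 (SE 0.47) for Lep. In that comparison 6 of the 10 markers lay above all batch 1 controls, against 4.13% of all genes. The mean log2(CPM + 1) of the 10 markers was 8.69 to 9.42 in WD and 10.14 to 10.40 in the batch 2 controls. The 10 macrophage markers summed to 1731 to 3172 CPM in WD, 337.6 to 727.0 in the batch 2 controls and 367.8 to 1545 in the batch 1 controls, with at most 1 of the 10 at a count of 0 in a library. The 6 stromal progenitor markers summed to 1769 to 3707 CPM in WD and 1055 to 2430 in the batch 2 controls, and the 5 mesothelial markers to 16.9 to 123.3 and 43.6 to 101.1 CPM, with up to 2 of the 5 at a count of 0 in a WD library. The part of these cell types in the fold changes was not tested.

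Each gene was therefore also expressed relative to the mean of the adipocyte markers of its own library, and exact two-sided permutation tests were run on the 10 genes. The markers did not move alike, with log2 fold changes in WD against the batch 2 controls from -3.07 (Cfd) to 1.29 (Lep). The part of single markers in this scale was not tested. On this scale the WD group was higher than the batch 2 controls by 1.32 for Cd36 and by 0.71 for Lpl, each with no overlap and an exact p of 0.00794, although Lpl had been lower in CPM. The control batches differed for Cd36 as well, with batch 2 at -0.95 from batch 1 (exact p = 0.00794) and at -0.96 (p = 0.0179) without B1_con1. Within batch 1 the relative difference of WD from control was 0.36 for Cd36 (exact p = 0.262), and 0.79 for Lpl (p = 0.0794). Without B1_con1 it was 0.36 for Cd36 (exact p = 0.357) and 0.56 for Lpl (p = 0.179). Batch 2 controls were also lower than batch 1 controls for Fabp4 (-0.66) and Acsl1 (-0.63), both with an exact p of 0.0159, although in CPM both had been higher. Without B1_con1 the relative differences were -0.81 (exact p = 0.0179) and -0.37 (p = 0.0536). The difference of Fabp4 in mean log2(CPM + 1) was then 0.0. Dgat2 was higher in batch 2 controls by 1.96 on the relative scale (exact p = 0.0476), and by 1.0 (p = 0.107) without B1_con1. Gpihbp1 (1.31) and Dgat2 (0.31) were also higher in WD than in the batch 2 controls, both with an exact p of 0.0317, and the sign of Dgat2 was again the reverse of that in CPM. For Gpihbp1, made by endothelium, the difference in mean log2(CPM + 1) was 0.13 (exact p = 0.786). The marker mean was lower in WD, which by construction raises the relative value of a gene whose own level is the same. For Acsl1 the relative difference was 0.34 (exact p = 0.0952), for Agpat2 0.14 (p = 0.579), for Dgat1 0.49 (p = 0.0556) and for Fabp4 0.78 (p = 0.135), all positive where the differences in CPM were negative. Lpin1 stood at -0.87 ± 0.26 (SD, n = 5) in WD and at -0.85 ± 0.33 (n = 5) in the batch 2 controls, a difference of -0.02 (exact p = 0.944). Within batch 1 the relative difference was 2.27 for Dgat2 (exact p = 0.0159), and 1.31 (p = 0.0357) without B1_con1, in the direction of its value in CPM. These exact p-values come from 10 genes in each of several comparisons, some repeated without B1_con1, and are not adjusted.

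**Figure D3:**
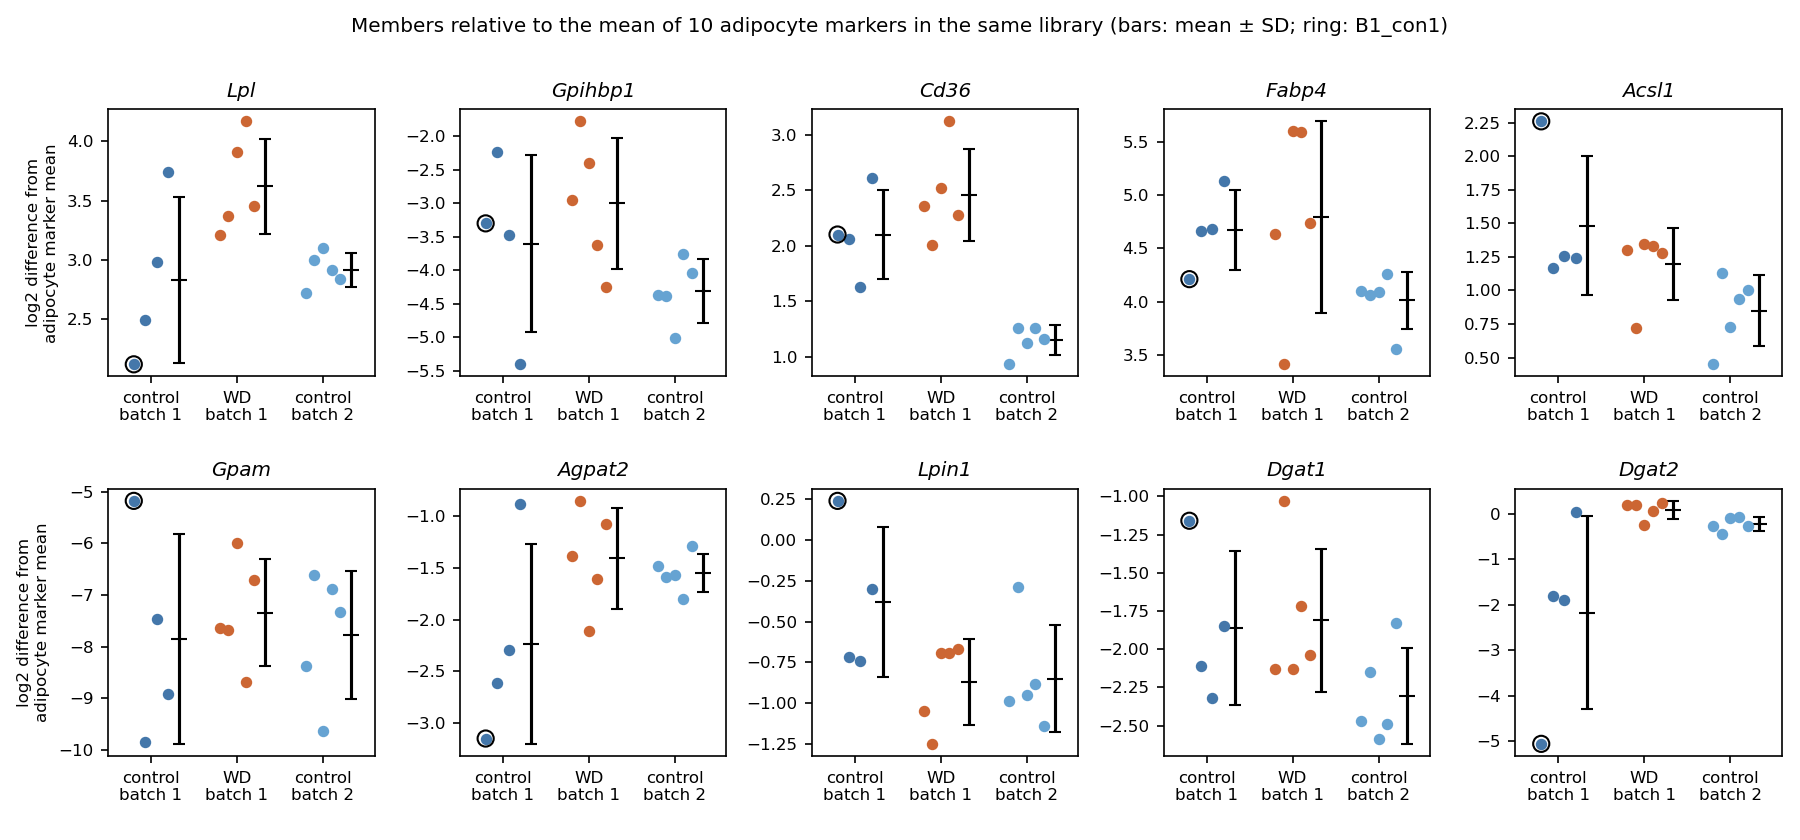
Log2(CPM + 1) of each gene minus the mean log2(CPM + 1) of 10 adipocyte markers in the same library, by diet and batch, with points for libraries, bars for the mean ± SD and a ring for B1_con1. Cd36 and Lpl in WD lie above all batch 2 controls, whereas those of Lpin1 overlap, from -1.25 to -0.67 in WD and from -1.14 to -0.29 in the batch 2 controls.

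Among 37 further genes of the route, 33 were tested in each comparison. Against the batch 2 controls 4 of the 33 fell and 1 rose, and 6.4% of all genes were called. Mogat1, a monoacylglycerol acyltransferase, fell by 2.29 (SE 0.47, FDR 0.00640), from 19.6 to 46.6 CPM in the batch 2 controls to 2.61 to 14 CPM in WD. Agpat6 and Agpat9, the older symbols of the glycerol-3-phosphate acyltransferases Gpat4 and Gpat3, fell by 1.25 (SE 0.23, FDR 0.00267) and by 1.52 (SE 0.34, FDR 0.0110). Neither overlapped between the groups, with Agpat6 at 54.9 to 127.5 CPM in WD and 164.0 to 277.7 CPM in the batch 2 controls. Pck1, which feeds glycerol phosphate from smaller precursors, fell by 1.52 (SE 0.42, FDR 0.0400), with overlapping groups. Fabp5, a fatty acid binding protein that macrophages also make, rose by 0.72 (SE 0.19, FDR 0.0349), from 181.0 to 267.5 CPM to 256.9 to 460.7 CPM. The median log2 fold change was -0.13 over the 33 genes. Batch 2 controls were above all batch 1 controls for 4 of the 33, against 4.13% of all genes. These were Agpat6 (1.05, SE 0.31), Agpat9 (1.12, SE 0.94), Bscl2 (1.37, SE 0.26) and Gpd1 (1.27, SE 0.33). From batch 1 to batch 2 controls the log2 fold change was 1.02 for Mogat1, 0.10 for Pck1 and -0.03 for Fabp5, with overlap. Within batch 1, WD differed from control by -0.19 for Agpat6, -0.38 for Agpat9, -1.26 for Mogat1, -1.41 for Pck1 and 0.70 for Fabp5. Within batch 1, 0 of the 33 passed the edgeR test, and 5 had an unadjusted p under 0.05, as did 5.17% of all genes. Of these, Acsl5, Gpd1 and Bscl2 were higher and Agpat3 and Pcsk5 lower. Against the batch 2 controls Gpd1 was at -0.09 (SE 0.26) and Bscl2 at -0.48 (SE 0.31), not higher in WD. Acsl5 was at 0.65 (SE 0.28) there, Agpat3 at -0.60 (SE 0.21) and Pcsk5 at -1.10 (SE 0.46), and none of the 5 had an FDR under 0.05. Gpd1 was lowest in B1_con1, at 109.8 CPM. Pcsk5 stood at 260.8 CPM in B1_con1, the library with epididymis RNA, against 23.9, 31.0 and 0.218 CPM in the other batch 1 controls and 3.32 to 11.5 CPM in WD. Acsl5, an acyl-CoA synthetase, averaged 43.2 CPM in WD and 18.7 CPM in those controls (log2 fold change 1.20, SE 0.47, FDR 0.808).

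**Figure D4:**
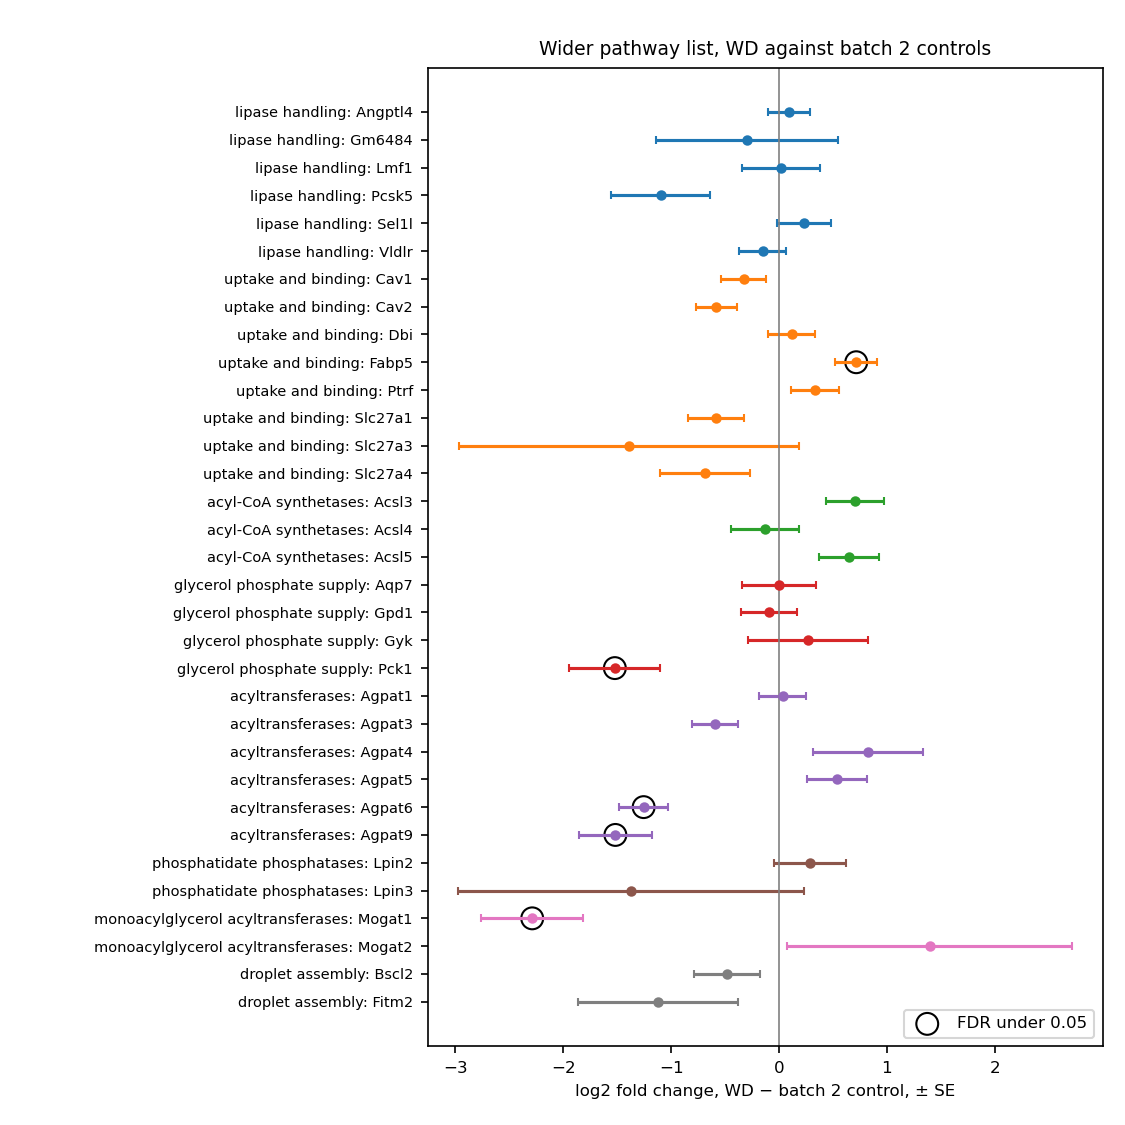
Log2 fold change (± SE, edgeR) in WD against the batch 2 controls of the 33 tested genes of the wider route, coloured and labelled by step. Black rings mark an FDR under 0.05, reached by Mogat1, Agpat6, Agpat9 and Pck1 below 0 and by Fabp5 above 0.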

How the data were processed

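For eWAT RNA, 9 control and 5 WD QuantSeq 3′ libraries were sequenced as single-end reads. Alignment by the authors used Bowtie2. Their counts per gene came from Bedtools, for unique and multiple alignments, and were deposited raw. The authors also deposited log2 values after TMM and CPM scaling in edgeR, with 1 added, and the log2(CPM + 1) values computed here from the counts differed from them by at most 0.0507. The submitters' processing notes name mm10. Tool versions, the annotation and the strand setting are not given in the sources used here. No molecular identifiers are described, so the smallest level of 3 counts covers counting error only.

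The counts were tested with edgeR 4.0.16 (quasi-likelihood, TMM, its filter on low counts, Benjamini-Hochberg FDR under 0.05 over all genes tested) in R 4.3.3, without covariates, for WD against batch 1 controls, batch 2 controls and all controls, and for the control batches. Log2(CPM + 1) was compared by exact permutation tests in Python 3.11.15 with numpy 2.4.6, pandas 2.3.3 and scipy 1.17.1, and plotted with matplotlib 3.10.9. The fits were tested on simulated data. Alternatives tried were library totals, upper-quartile factors, no filter, DESeq2 1.42.0, limma-voom (limma 3.58.1), each library left out, the replicate number as a block, all 14 libraries with batch as a term or in 3 groups, a pseudocount of 0.1 and scaling to adipocyte markers. Gene models were set beside GENCODE vM21, and promoters came from RefSeq.

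The genes and lists were chosen with earlier results of these data known. All 10 genes are named, with those of the wider list that had an FDR under 0.05 (at most 8), the 5 genes with a mean of at least 10 CPM whose profile was nearest to theirs, the nearest gene within the 10, and markers beside a result. The 5 genes of the wider list with an unadjusted p under 0.05 in batch 1 were named after their values were seen.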

Additional observations from a re-analysis of the deposited data

Results flagged for a closer look

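Of 30 groups (10 genes in 3 groups of libraries), 6 held 1 library set apart from the rest by Dixon's criterion, and chance alone would give about 1.5. In 3 of the 6 it was B1_con1, at 9.18 on the log2(CPM + 1) scale for Lpl (12.34 to 12.72 in the other batch 1 controls), 11.27 for Fabp4 (14.04 to 14.51) and 2.01 for Dgat2 (7.84 to 8.96), and this library also held 13.2% of its counts in epididymis genes. Lpl was set apart in B1_WD1, at 12.43 against 12.79 to 12.86 in the other WD libraries. Fabp4 was set apart in B2_con5, at 13.96 against 14.40 to 14.44 in the other batch 2 controls. Lpin1 was set apart upward in B2_con2, at 10.05 against 9.26 to 9.36 in the others of its group.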

How the results depend on the processing

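Against the batch 2 controls, 3 of the 10 genes were called by edgeR, 5 by DESeq2 and 5 by limma-voom, and 2 to 5 with 1 library left out, the 5 without B1_WD2. Acsl1 and Lpin1 were called under every alternative fit of the counts in that comparison. Relative to the adipocyte markers, their differences were 0.34 (exact permutation p = 0.0952) and -0.02 (p = 0.944). Against all controls 0 were called, 1 by DESeq2 (Lpin1), 0 to 1 with 1 library left out, and 2 (Acsl1 and Lpin1) without B1_con1 and B1_con4. Between the control batches 0 were called, 0 with each library left out, and 2 without those libraries. Of exact permutation tests, 1 gene (Lpin1) had p under 0.05 against all controls, 2 (Lpl and Cd36) after adipocyte scaling with or without B1_con1, and 2 (Acsl1 and Lpin1) without B1_con1 alone. Between control batches 6 did (Lpl, Acsl1, Agpat2, Lpin1, Dgat1 and Dgat2, higher in batch 2), and with scaling and without B1_con1 2 others (Cd36 and Fabp4, lower). Over all genes, DESeq2 called 114 within batch 1 against 0, 236 against all controls against 67, and 111 between control batches against 0. Against all controls 190 were called without B1_con1, 289 without B1_con4, 619 without both and 223 by limma-voom. Within batch 1, 48 were called without B1_con4 and 108 without both.

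Same-numbered libraries correlated at -0.041 to 0.081, so the replicate numbers do not pair them. With the replicate block 4 of the 10 genes were called against the batch 2 controls, Agpat2 (FDR 0.0297) being added, and Gpihbp1 between the control batches became 0.64.

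Signs of edgeR fold changes turned only for values that had not passed the test. Without B1_con1 the median of all genes within batch 1 was 0.131, and with limma-voom 0.420. With 1 library left out, log2 fold changes within batch 1 spanned -0.328 to 1.37 (Gpihbp1), -0.026 to 0.564 (Cd36), -0.310 to 0.258 (Fabp4), -0.436 to 0.003 (Acsl1) and -0.127 to 0.491 (Dgat1). The sign turned without B1_con1 (Gpihbp1, Cd36, Fabp4), B1_con2 (Acsl1), B1_con4 (Gpihbp1), B1_WD2 (Gpihbp1, Dgat1), B1_WD3 or B1_WD4 (Fabp4). Against the batch 2 controls Gpihbp1 spanned -0.163 to 0.598, and against all controls -0.243 to 0.690, with Fabp4 at -0.339 to 0.018, turning without B1_WD2, and Gpam at -0.843 to 0.008, turning without B2_con2. Between control batches the spans were -0.538 to 0.996 (Gpihbp1, turning without B1_con2), -0.165 to 0.447 (Cd36) and -0.006 to 0.585 (Fabp4), the latter both turning without B1_con1. Without B1_con1 and B1_con4, values within batch 1 were -0.648 (Gpihbp1), -0.070 (Cd36), -0.436 (Fabp4) and -0.155 (Dgat1), and between control batches -0.202 (Cd36) and -0.125 (Fabp4). Fabp4 within batch 1 was 0 with library totals and -0.022 in DESeq2. In limma-voom, Lpl (0.181), Gpam (0.059) and Dgat2 (0.639) turned positive against all controls, and Gpihbp1 (0.695) between control batches.

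For differences of log2(CPM + 1) within batch 1, leaving out B1_con1 gave -0.01 (Cd36), -0.40 (Fabp4) and -0.09 (Dgat1), and -0.03 (Fabp4) with adipocyte scaling. Adipocyte scaling turned the differences from the batch 2 controls to 0.71 (Lpl), 0.78 (Fabp4), 0.34 (Acsl1), 0.43 (Gpam), 0.14 (Agpat2), 0.49 (Dgat1) and 0.31 (Dgat2). For batch 2 against batch 1 controls, adipocyte scaling gave -0.71 (Gpihbp1), -0.95 (Cd36), -0.66 (Fabp4), -0.63 (Acsl1), -0.47 (Lpin1) and -0.45 (Dgat1). Without B1_con1 as well it gave -0.15 (Lpl), -0.61 (Gpihbp1), -0.96 (Cd36), -0.81 (Fabp4), -0.37 (Acsl1), -0.27 (Lpin1) and -0.22 (Dgat1), and without B1_con1 alone Cd36 was at -0.15. Beyond the alternatives' own construction, the cause of these changes was not tested. Gpam had 0 to 128 counts a library, and the part of depth in its wide errors was not tested.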

Other observations

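Over the 14 libraries, the median profile of the 10 genes was lowest in B1_con1 (-2.14 on the centred log2 scale) and highest in B2_con2 (0.78). Among 7970 genes with a mean of at least 10 CPM, those nearest to it were Abhd15, with a root mean square difference of 0.23, Akt2 (0.25), which encodes an insulin-signalling kinase, Vegfb (0.26), Pmepa1 (0.26) and Pnpla2 (0.26), which encodes the triglyceride lipase that opens lipolysis. Within the 10, Cd36 and Fabp4 were each other's nearest gene (0.46), and Dgat2 lay farthest from the median profile (1.43). These distances are a description over libraries that share B1_con1, in which 8 of the 10 genes were lowest.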
